A study of Rattus norvegicus with 9 samples.

Results

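Heart muscle responds to noradrenaline and adrenaline through adrenergic receptors, and 9 genes of this route were followed here out of 35843 genes in the expression table. They were taken by gene name, with 1 row for each name: the receptors Adrb1, Adra1a and Adra1b, the receptor kinase Grk5, the adenylyl cyclases Adcy5 and Adcy6, and the phosphodiesterases Pde3a, Pde4b and Pde5a. Total RNA from the left ventricles of adult male Sprague-Dawley (SD) rats was sequenced at day 28, with 3 rats in each group. Each rat has its own column of values. The sample titles carry a pair of names for each rat, and whether these stand for separate libraries is not stated. Group Sham had sham surgery, and group MI had a myocardial infarction made by tying off the left anterior descending coronary artery, both with saline by gavage. Group MI + DAPA (1st d), written group DAPA from here on, had the same infarction and received dapagliflozin (DAPA), a blocker of the sodium-glucose cotransporter SGLT2, by daily gavage starting on the first day. For the molecular assays in general the methods name mainly the infarct border with the scar cut off and, in group Sham, the matching place, whereas the sequenced RNA is described as left ventricle and as infarct myocardium, so where in the ventricle these samples lay is not settled. Either way they are bulk tissue of mixed cell types. The deposited value is FPKM, a count of sequenced fragments divided by the length of the gene and by a denominator for the library. Levels can be compared between genes of a rat, while comparisons between rats rest on that denominator, which is described further on.

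The beta-1 receptor (Adrb1) works through the stimulatory G protein, which switches on adenylyl cyclase, and the cyclic AMP made in this way activates protein kinase A and raises the rate and force of the beat. The alpha-1 receptors (Adra1a and Adra1b) work through Gq and the release of calcium, and are known for their part in growth of cardiomyocytes. Grk5 phosphorylates receptors that have bound agonist and so takes them out of action, Adcy5 and Adcy6 are the main cardiac adenylyl cyclases, and phosphodiesterases break the cyclic nucleotides down again: Pde4b breaks down cyclic AMP, Pde5a breaks down cyclic GMP, and Pde3a breaks down cyclic AMP in a way that cyclic GMP inhibits. In failing hearts this route is known to be blunted after long exposure to catecholamines.

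In the infarcted ventricle Adcy6 fell and Pde3a rose, to 0.525 and 2.20 times the mean FPKM of group Sham. Relative to all reads of the library, the mitochondrial genome included, Adcy6 stood at 0.21 on the log2 scale, still below the median of all genes (0.92). These were 2 of the 8 genes tested, where 39% of all genes passed. In group DAPA none of the 8 passed against group MI, as none of all 13251 genes tested did, while Adra1b and Adcy5 were higher than in group Sham, where 28.6% of all genes passed. The Adra1b call held in all 12 other settings tried, and that of Adcy5 was lost in 10 of 12. In MI vs. Sham the calls of Pde3a and Adcy6 were lost in 7 of 12 each, and Adcy6 turned direction in 1 more. The largest of the differences from group MI was in Adra1b, whose mean FPKM was 2.27 times that of group MI, with ranges that overlapped.

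The stretches of 250 bases that end just before the transcription start are shown for the members that passed a test and have an entry in the promoter table, since they are the regulatory sequence nearest to the genes the results turn on. They are RefSeq sequences of build GRCr8, written 5′ to 3′ on the strand of the gene, and 7 of the 9 members had an entry. Adcy6 and Adra1a had none. Capitals mark matches to GGGCGG, the GC box, on either strand.
Pde3a, chr4:175904026-175904275, plus strand: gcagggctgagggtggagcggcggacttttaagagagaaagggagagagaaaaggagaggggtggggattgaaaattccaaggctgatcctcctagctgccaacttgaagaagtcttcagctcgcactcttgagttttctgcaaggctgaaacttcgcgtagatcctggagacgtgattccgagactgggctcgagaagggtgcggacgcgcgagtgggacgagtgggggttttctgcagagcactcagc
Adra1b, chr10:28814348-28814597, minus strand: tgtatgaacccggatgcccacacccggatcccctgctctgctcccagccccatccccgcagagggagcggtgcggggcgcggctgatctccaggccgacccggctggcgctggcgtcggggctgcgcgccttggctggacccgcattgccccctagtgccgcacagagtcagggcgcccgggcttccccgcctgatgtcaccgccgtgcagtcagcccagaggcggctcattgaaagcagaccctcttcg
Adcy5, chr11:79123344-79123593, minus strand: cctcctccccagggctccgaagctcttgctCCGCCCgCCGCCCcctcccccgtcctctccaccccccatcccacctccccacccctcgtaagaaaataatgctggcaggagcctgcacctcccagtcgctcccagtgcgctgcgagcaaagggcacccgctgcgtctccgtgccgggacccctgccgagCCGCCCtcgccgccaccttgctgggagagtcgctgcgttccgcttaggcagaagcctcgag
The letters TGACGTCA, the full cyclic AMP response element, were in none of these 3 windows, against 1.59% of 33469 windows of the same length in the table. Its shorter form TGACG, part of the full element, was likewise in none of the 3, against 18.2% of windows, and TATAAA was also in none of the 3, against 12.9%. Of the members with an entry but not shown, only Adrb1 had a TGACG match, with its last base 84 bases before the start. The GC box was matched 3 times in the window of Adcy5, with the last base of each match 215, 208 and 56 bases before the start, and not in those of Pde3a and Adra1b, against 30.5% of all windows with at least 1 match.

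Some facts of the whole set of libraries touch every comparison with group Sham. Genes of the mitochondrial genome held 61.1% to 66.9% of the recovered reads in Sham rats, 7.07% to 19.1% in MI rats and 17.5% to 32.0% in DAPA rats, so that the other genes were read at 5703575 to 6571954 reads per rat in group Sham and at 11442304 to 13174084 in the other groups. The FPKM values had a denominator of 0.512 to 0.619 times the recovered reads in group Sham and 0.954 to 1.298 times in the other rats, and the reason for this is not given in the sources used here. Markers of cell types moved with the groups as well. The summed FPKM of 16 cardiomyocyte markers was 7876 to 11496 in Sham rats, 2590 to 12560 in MI rats and 9706 to 20011 in DAPA rats, with the lowest sum in MI rat 2; in DAPA vs. Sham 9 of the 16 rose. That of 10 fibroblast markers was 545 to 871, 4121 to 8113 and 2603 to 4585, that of 10 macrophage markers 164 to 514, 1970 to 3587 and 1081 to 2018, and that of 9 endothelial markers 1312 to 1690, 437 to 611 and 677 to 770. Adipocyte markers (7 genes) summed to 4019 to 5688 in Sham rats, 402 to 778 in MI rats and 629 to 1134 in DAPA rats, and 5 atrial cardiomyocyte markers to 74.1 to 206, 636 to 7233 and 4215 to 8792. Only 3 of the adipocyte markers could be tested in MI vs. Sham, where 1 was called higher and 2 lower. Whether the adipocyte and atrial sums stand for cells of these types was not tested. T cell markers (8 genes) summed to 12.5 to 28.1, 64.0 to 275 and 35.0 to 68.0, and 6 B and plasma cell markers to 6.07 to 12.6 in Sham rats, to 35.8, 3822 and 664 in MI rats 1 to 3 and to at most 16.6 in DAPA rats, so MI rat 2 stood apart in both. No gene of these lists was at 0 in every rat. In such bulk tissue, fewer cells of a type and less RNA per cell cannot be told apart, and the part of these shifts in the results below was not tested beyond the values relative to cardiomyocyte markers given further on.

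The beta-1 receptor gene Adrb1 was at 0.477, 0.695 and 3.16 FPKM in the 3 Sham rats, at 1.81, 0.889 and 2.61 in the MI rats and at 1.73, 1.56 and 2.76 in the DAPA rats. One Sham rat was the highest of all 9 and the other two the lowest, so the groups overlapped completely, and these values rest on 7 to 70 recovered reads per rat. The log2 fold change on log2(FPKM + 1), a scale that understates change at low values, was 0.29 ± 0.44 (SE, n = 3 per group) in MI vs. Sham, with a limma p of 0.63 after Benjamini-Hochberg adjustment over all genes tested. It was 0.15 ± 0.29 in DAPA vs. MI and 0.44 ± 0.41 in DAPA vs. Sham. None of these differences passed the test.

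Of the alpha-1 receptors, Adra1a was the lowest member in every group. It was listed at 0 in 2 Sham rats and at 0.501 FPKM in the third, at 0.228, 0.417 and 0.819 in the MI rats and at 1.16, 0.733 and 0.407 in the DAPA rats. With 0 to 39 reads per rat it did not reach 1 FPKM in 3 rats of any comparison, so it was not tested, and it is counted among the 9 members but not among the 8 tested ones. A count of 3 reads, taken as the limit that 0 reads allow, would correspond to 0.141 and 0.143 FPKM in the 2 Sham rats at 0, counting error only.

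Adra1b was at 1.57, 1.41 and 2.05 FPKM in Sham rats, at 1.45, 1.20 and 4.83 in MI rats and at 4.13, 8.29 and 4.57 in DAPA rats. Every DAPA rat was above every Sham rat, and MI rat 3 lay among the DAPA rats while the other two MI rats lay within or below the Sham range. Adra1b rose in DAPA vs. Sham, by 1.27 ± 0.27 on the log2 scale (limma adjusted p = 0.0131), and this call held in all 12 other settings tried, with an adjusted p of at most 0.0394. In DAPA vs. MI the difference was 1.02 ± 0.42 with an unadjusted limma p of 0.0445 and an adjusted p of 0.558. On these limma values it met the threshold that the study used with DESeq2 (p under 0.05 and a log2 fold change over 1) and failed the correction. Without MI rat 3 that difference was 1.47, and without MI rat 2 it was 0.76. In MI vs. Sham it was 0.25 ± 0.38 (adjusted p = 0.637), and without MI rat 3 it turned to -0.20. MI rat 3 also had the highest sum of cardiomyocyte markers in its group, 12560 against 6775 and 2590 FPKM. Their part in the Adra1b values was not tested beyond the values relative to these markers given further on.

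**Figure D1:**
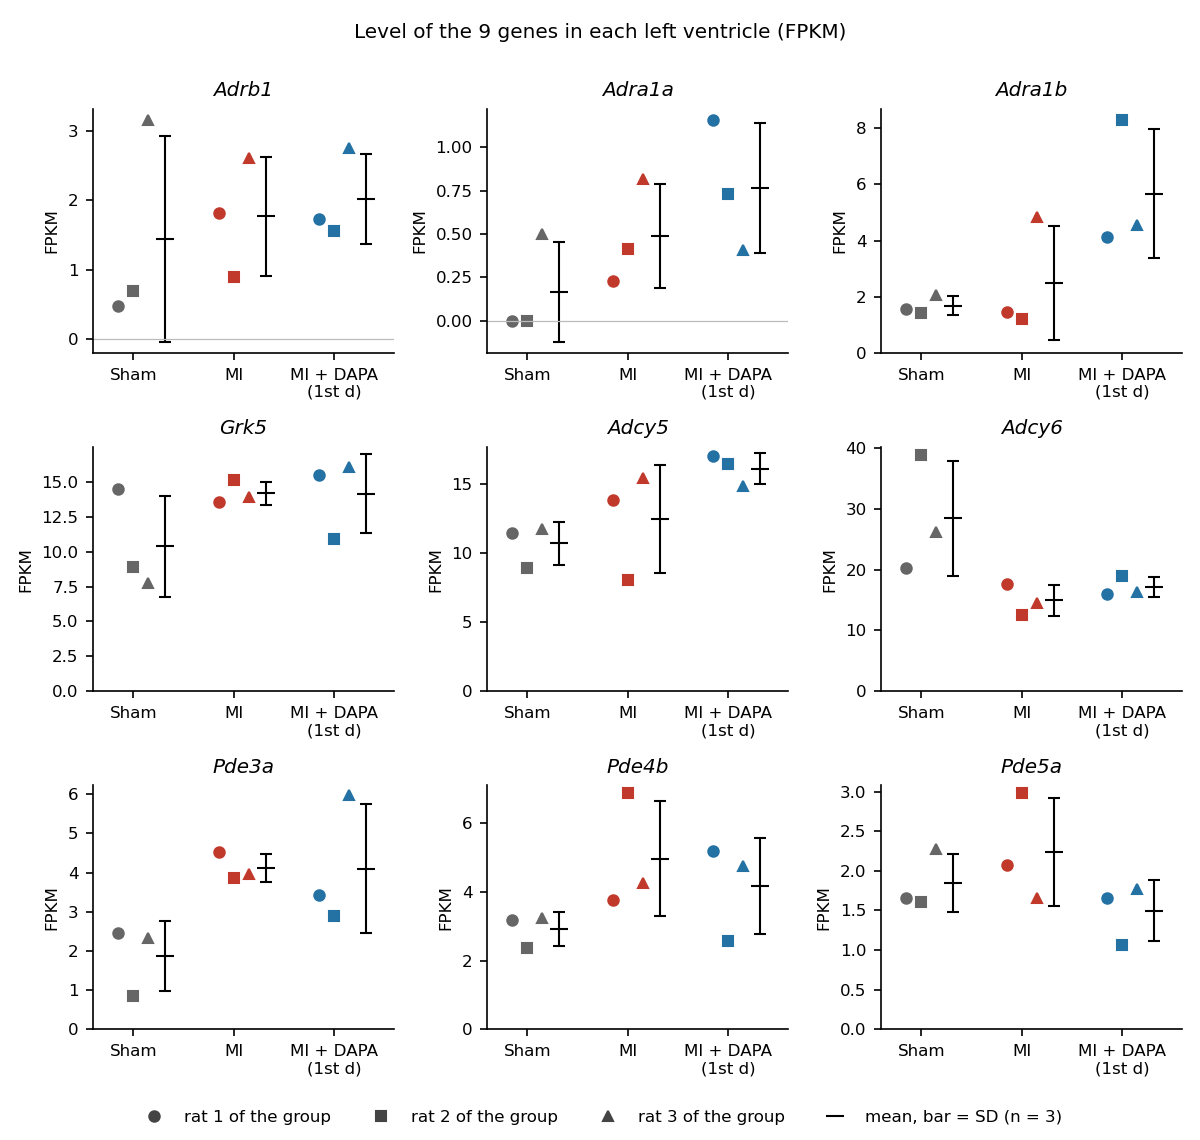
Level of each of the 9 genes in each rat, in FPKM on a linear axis, for group Sham (grey), group MI (red) and group MI + DAPA (1st d) (blue); the bar beside the points is the mean ± SD of 3 rats. Adcy6 lies higher in the 3 Sham rats (20.3 to 38.8) than in any infarcted rat (12.6 to 19.0), and Adra1b in all 3 DAPA rats (4.13 to 8.29) above all Sham rats (1.41 to 2.05).

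The receptor kinase gene Grk5 was at 14.5, 8.90 and 7.72 FPKM in Sham rats, at 13.6, 15.1 and 13.9 in MI rats and at 15.5, 10.9 and 16.1 in DAPA rats. Sham rat 1 lay among the infarcted rats, so the groups overlapped. The difference in MI vs. Sham was 0.46 ± 0.23 (limma adjusted p = 0.15), and without Sham rat 1 it was 0.71 with an adjusted p of 0.020. Group DAPA stood at 0.44 ± 0.26 against group Sham (adjusted p = 0.236) and at -0.02 ± 0.17 against group MI.

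Of the cyclases, Adcy6 fell after infarction. It was at 20.3, 38.8 and 26.2 FPKM in Sham rats, at 17.6, 12.6 and 14.6 in MI rats and at 16.0, 19.0 and 16.3 in DAPA rats. All infarcted rats, treated or not, were below all Sham rats. On the deposited scale Adcy6 fell by 0.85 in MI vs. Sham as log2 fold change (SE 0.25, limma adjusted p = 0.0332), from a mean of 28.4 ± 9.47 to 14.9 ± 2.52 FPKM (SD, n = 3). In DAPA vs. Sham the difference was -0.66 ± 0.24, which did not pass (adjusted p = 0.0759), and in DAPA vs. MI it was 0.20 ± 0.16 (adjusted p = 0.66). Sham rat 2 was the highest, and without it the fall in MI vs. Sham was 0.61 with an adjusted p of 0.0659. Leaving out any rat but Sham rat 1 raised that adjusted p above the threshold, to between 0.0511 and 0.0914, with the direction kept.

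Adcy5 was at 11.4, 8.92 and 11.8 FPKM in Sham rats, at 13.8, 8.01 and 15.4 in MI rats and at 17.0, 16.4 and 14.8 in DAPA rats. The MI rats spread over the range of both other groups, with MI rat 2 the lowest of all 9. That rat also had the lowest sum of cardiomyocyte markers. Their part in the Adcy5 values was not tested beyond the values relative to these markers given further on. Adcy5 rose in DAPA vs. Sham by 0.55 ± 0.17 (limma adjusted p = 0.0413), without overlap between the groups. This call stood close to the threshold: with any of the 6 rats left out the adjusted p was 0.0651 to 0.133, and the direction stayed. In DAPA vs. MI the difference was 0.39 ± 0.24 (adjusted p = 0.599) and in MI vs. Sham 0.16 ± 0.25 (adjusted p = 0.642).

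Within the same rat the ratio of Adcy5 to Adcy6 does not depend on the library scaling. Its log2 value was -0.83, -2.12 and -1.15 in group Sham, -0.35, -0.65 and 0.08 in group MI and 0.08, -0.21 and -0.14 in group DAPA. Adcy6 was thus the more abundant of the pair by FPKM in every Sham rat, and the levels of both were near each other in the DAPA rats. The log2 ratio was 1.06 higher in group MI and 1.28 higher in group DAPA than in group Sham, without overlap in either case, with exact permutation p = 0.1 for each (two-sided; 3 against 3 rats cannot give less), or 0.34 after adjustment over the 17 ratio tests made. Without Sham rat 2 the difference between groups MI and Sham was 0.69. Groups DAPA and MI differed by 0.22 with overlap (exact p = 0.5).

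Among the phosphodiesterases, Pde3a was at 2.45, 0.853 and 2.32 FPKM in Sham rats, at 4.53, 3.85 and 3.97 in MI rats and at 3.43, 2.89 and 5.97 in DAPA rats. All infarcted rats were above all Sham rats. Pde3a rose in MI vs. Sham by 0.88 ± 0.27 (limma adjusted p = 0.0387), from a mean of 1.88 ± 0.89 to 4.12 ± 0.36 FPKM (SD, n = 3). Sham rat 2 was the lowest, and without it the rise was 0.59 with an adjusted p of 0.0453. Leaving out an MI rat or Sham rat 3 gave adjusted p-values of 0.053 to 0.116. In DAPA vs. Sham the difference was of like size, 0.83 ± 0.33, and did not pass (adjusted p = 0.0981), and in DAPA vs. MI it was -0.05 ± 0.24.

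Pde4b was at 3.19, 2.36 and 3.24 FPKM in Sham rats, at 3.77, 6.89 and 4.27 in MI rats and at 5.20, 2.59 and 4.76 in DAPA rats. Every MI rat was above every Sham rat, MI rat 2 by the most. The difference in MI vs. Sham was 0.58 ± 0.24 with an unadjusted limma p of 0.0441 and an adjusted p of 0.0929, and it was 0.36 without MI rat 2. That rat also had the highest sums of macrophage, T cell and B and plasma cell markers of all 9, and their part in the value was not tested. DAPA rat 2 lay within the Sham range, and group DAPA differed by -0.21 ± 0.28 from group MI and by 0.37 ± 0.26 from group Sham.

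Pde5a was at 1.66, 1.61 and 2.27 FPKM in Sham rats, at 2.07, 2.98 and 1.66 in MI rats and at 1.66, 1.06 and 1.77 in DAPA rats. The groups overlapped in every comparison, and no difference passed. It was 0.17 ± 0.22 in MI vs. Sham, -0.37 ± 0.22 in DAPA vs. MI (limma adjusted p = 0.602) and -0.19 ± 0.23 in DAPA vs. Sham.

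Over the 9 members, 8 could be tested in each comparison. In MI vs. Sham 2 of the 8 were called at an adjusted limma p under 0.05 (1 higher, 1 lower), where 39% of the 13485 genes tested were called, 19.5% as higher and 19.5% as lower. At an unadjusted limma p under 0.05 it was 3 members against 49% of genes, and the study's threshold was met by 0 members against 22.4%. The study set that threshold on DESeq2 values, whereas here it is set on limma values of log2(FPKM + 1), which understate change at low levels. Pde3a, at 2.20 times the mean FPKM of group Sham, stood at 0.88 on this scale. The median log2 fold change of the 8 was 0.27, against -0.01 for all genes tested. In DAPA vs. MI 0 of the 8 were called, where 0% of 13251 genes were. At an unadjusted limma p under 0.05 it was 1 member, Adra1b, against 8.49% of genes, and the study's threshold was met by the same gene, against 2.06%. The members' median was 0.07. In DAPA vs. Sham 2 of the 8 were called (both higher), where 28.6% of 13359 genes were, 14.5% as higher and 14.1% as lower, with a median of 0.44 against 0.01 for all genes. Unadjusted, 4 members had a limma p under 0.05 there against 41.4% of genes, and 1 met the study's threshold against 17.7%. Groups did not overlap for 3 members in MI vs. Sham (54.6% of genes), for 0 in DAPA vs. MI (13.8%) and for 4 in DAPA vs. Sham (46.5%). Comparisons with the same Sham or MI rats share their error and are set side by side only.

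**Figure D2:**
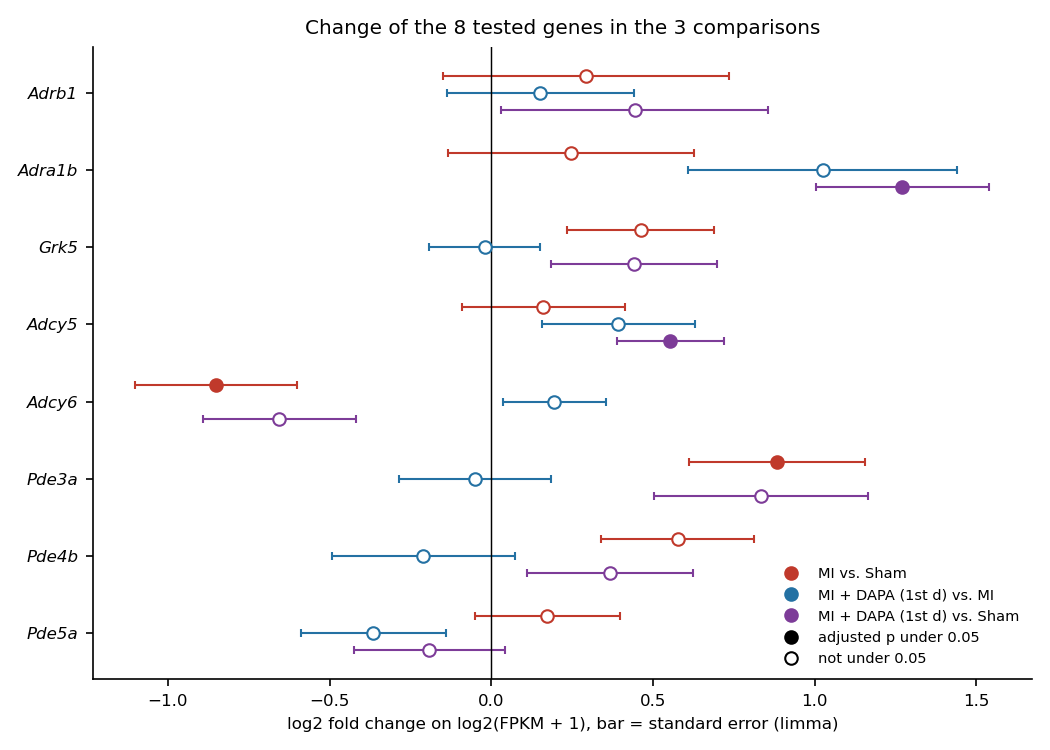
Log2 fold change on log2(FPKM + 1) of the 8 tested genes, with the limma standard error, in MI vs. Sham (red), MI + DAPA (1st d) vs. MI (blue) and MI + DAPA (1st d) vs. Sham (purple); filled points have an adjusted p under 0.05. Filled points are Adcy6 (-0.85) and Pde3a (0.88) for MI vs. Sham and Adra1b (1.27) and Adcy5 (0.55) for DAPA vs. Sham, and every blue point is open.

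By mean FPKM, Adcy6 led in all 3 groups, and Adra1a came last. In group Sham Adcy6 (28.4) stood clear of Adcy5 (10.7) and Grk5 (10.4), whose ranges overlapped, and these stood clear of Pde4b (2.93), below which each neighbour overlapped with the next. In group MI Adcy6 (14.9), Grk5 (14.2) and Adcy5 (12.4) overlapped, in that order, and stood clear of Pde4b (4.98) and Pde3a (4.12). In group DAPA the order was Adcy6 (17.1), Adcy5 (16.1) and Grk5 (14.1), again overlapping, then a gap, then Adra1b (5.66), Pde4b (4.18) and Pde3a (4.10). Adra1b thus had rank 7 of the members in group Sham (1.68), rank 6 in group MI (2.50) and rank 4 in group DAPA.

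Enzymes were also read against their closest relatives in the same rat. Pde3b, the relative of Pde3a known from adipocytes and liver, was at 0.588, 0.821 and 0.983 FPKM in Sham rats, at 5.45, 8.24 and 3.96 in MI rats and at 1.97, 2.18 and 3.06 in DAPA rats. It rose in MI vs. Sham by 1.90 ± 0.26 (limma adjusted p = 0.00256). The summed adipocyte markers were higher in group Sham, but of the 3 tested 1 was called higher and 2 lower in MI vs. Sham. The part of adipocytes in the Pde3b values was not tested. In DAPA vs. MI Pde3b stood at -0.98 ± 0.26 without overlap, with an unadjusted limma p of 0.00699 that the adjustment took to 0.558. The log2 ratio of Pde3a to Pde3b was 2.06, 0.05 and 1.24 in group Sham, -0.27, -1.10 and 0.01 in group MI and 0.80, 0.40 and 0.96 in group DAPA. Group MI was below both other groups without overlap, by 1.57 against group Sham and by 1.17 against group DAPA, each with an exact permutation p of 0.1 (adjusted p = 0.34). It was the only one of the 7 ratios whose ranges separated DAPA from MI rats.

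The log2 ratio of Pde3a to Pde5a was 0.56, -0.91 and 0.03 in Sham rats, 1.13, 0.37 and 1.26 in MI rats and 1.05, 1.44 and 1.75 in DAPA rats. It was 1.52 higher in group DAPA than in group Sham without overlap (exact permutation p = 0.1, adjusted p = 0.34), and groups MI and Sham overlapped. For Grk5 to Grk2, the main cardiac receptor kinase, the log2 ratio had means of -1.12 in Sham rats, -0.98 in MI rats and -0.71 in DAPA rats, with overlap in all comparisons. Pde4b was above Pde4d in all 9 rats, with mean log2 ratios of 2.04, 1.68 and 1.66 and overlap throughout. Ratios with Adra1a could be formed only in rats where it was above 0, so neither was tested against group Sham. In DAPA vs. MI both overlapped.

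**Figure D3:**
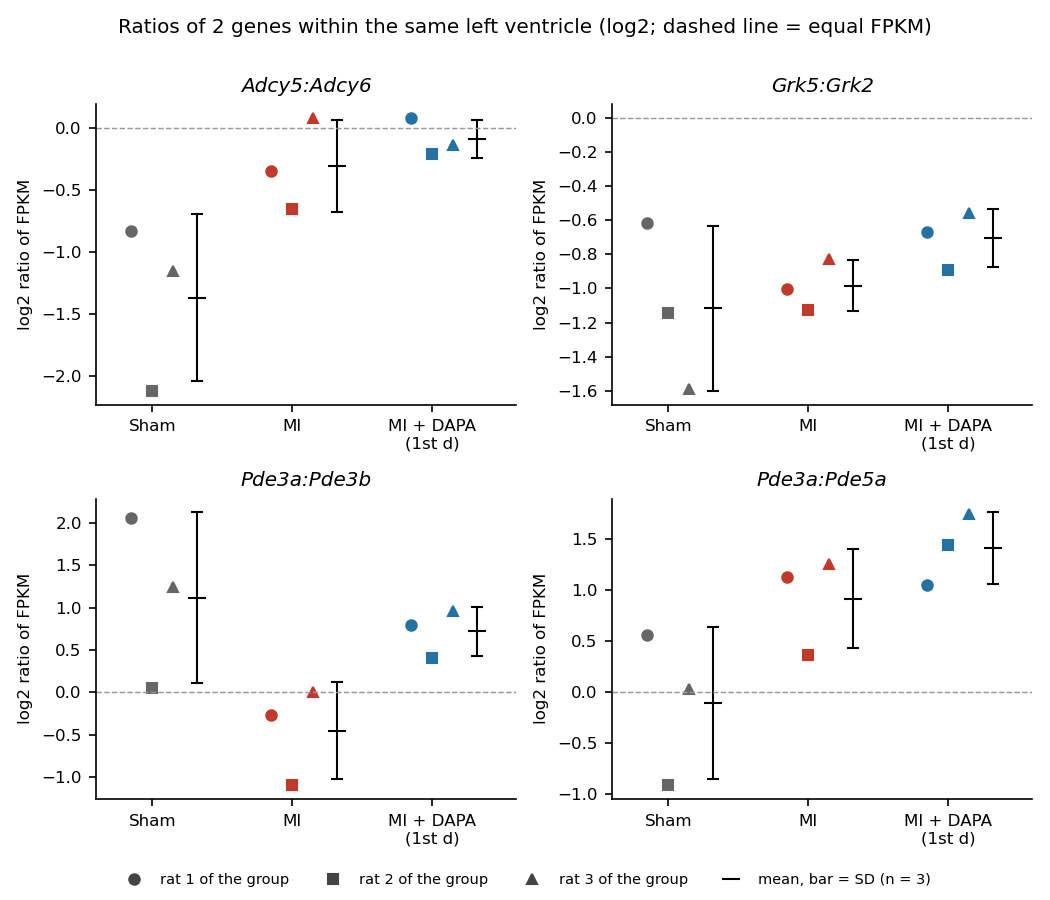
Log2 ratio of FPKM of 2 genes within each rat, with the mean ± SD of 3 rats beside the points; the dashed line marks equal FPKM. The ratio of Adcy5 to Adcy6 is below -0.8 in the 3 Sham rats and above -0.7 in the 6 infarcted rats, and that of Pde3a to Pde3b is lowest in the 3 MI rats.

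Values relative to the cardiomyocyte markers were formed because the members are expressed in cardiomyocytes among other cells. The mean log2 FPKM of the 16 markers was 7.77 ± 0.28 in Sham rats, 7.31 ± 1.10 in MI rats and 8.54 ± 0.48 in DAPA rats (SD, n = 3), a difference of 1.24 between groups DAPA and MI (exact permutation p = 0.2). Relative to it, Adra1b differed between groups DAPA and MI by 0.17 with overlap (exact p = 0.5). Against group Sham, Adra1b in group DAPA was at a difference of 0.93, Adcy6 at -1.46 and Pde5a at -1.09 relative to the markers, each without overlap and with an exact permutation p of 0.1 (adjusted p = 0.385 over the 25 tests made). For Pde5a the difference was -0.66 without DAPA rat 2. Adcy5 relative to the markers was -0.18 in the same comparison, with overlap. In MI vs. Sham no member separated relative to the markers, Pde3a standing at 1.74 and Adcy6 at -0.43, and in DAPA vs. MI none did either.

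Results against group Sham depended on the library scaling. Scaling the recovered reads to all reads of the library, the mitochondrial genome included, shifted the median log2 fold change of all genes to 0.92 in MI vs. Sham, to -0.21 in DAPA vs. MI and to 0.74 in DAPA vs. Sham. On that scale Adcy6 stood at 0.21 in MI vs. Sham and at 0.19 in DAPA vs. Sham, so its direction turned, while it stayed below the median of all genes in both. Grk5 (1.47), Adcy5 (1.17), Pde3a (1.64), Pde4b (1.42) and Pde5a (0.89) were then called higher in MI vs. Sham, and Pde5a was below the shifted median. With reads outside the mitochondrial genome as the base, the median stood at -0.11 in MI vs. Sham, Adcy6 at -0.96 (adjusted p = 0.0231) and Pde3a at 0.80 (adjusted p = 0.0555). In DAPA vs. Sham that base gave 0.43 for Adcy5 (adjusted p = 0.0806) and -0.78 for Adcy6 (adjusted p = 0.0413).

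**Figure D4:**
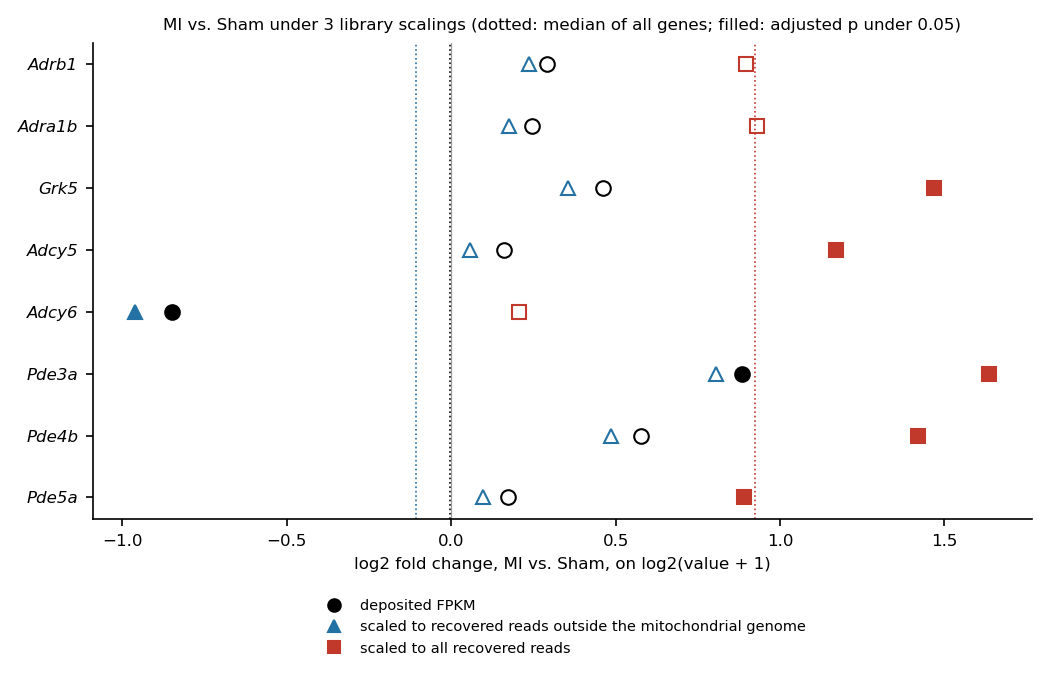
Log2 fold change of the 8 tested genes in MI vs. Sham with the deposited FPKM (black circles), with reads scaled outside the mitochondrial genome (blue triangles) and to all reads (red squares); dotted lines mark the median of all genes under each scaling, and filled points have an adjusted p under 0.05. Adcy6 lies left of the dotted line of its scaling in all 3, and Pde3a right of it in all 3.

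Beyond the members, 86 other genes of the route were listed, 84 were in the table and 62 could be tested in MI vs. Sham. Of these 10 rose and 10 fell in MI vs. Sham, 32.3% of the 62 against 39% of all genes, with a median of 0.18. In DAPA vs. MI 0 of 62 were called by limma, as were none of all genes, 6 (of all genes 8.49%) had an unadjusted p under 0.05, and none met the study's threshold (of all genes 2.06%). In DAPA vs. Sham 12 were higher and 11 lower of 61, 37.7% against 28.6% of all genes, with a median of 0.29. With scaling to all reads the split of calls moved to 43 higher and 6 lower in MI vs. Sham and to 36 and 5 in DAPA vs. Sham, as it did over all genes (9039 and 520 in MI vs. Sham, against 2626 and 2635), so directions here are relative to the median of all genes.

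None of 5 tested receptor kinases and arrestins, which uncouple the receptor, was called in MI vs. Sham, and 1 of 5, the kinase gene Grk6, was lower in DAPA vs. Sham (difference -0.59, limma adjusted p = 0.04, and 0.23 with scaling to all reads). Of 11 G protein subunit genes 1, Gnas, was called in each comparison with group Sham. Over all genes 39% were called in MI vs. Sham and 28.6% in DAPA vs. Sham. Gnas encodes the stimulatory alpha subunit that couples beta receptors to the cyclases, and the row with the higher mean of 2 with that name was used. Gnas was at 154, 149 and 168 FPKM in Sham rats. It was at 92.7, 73.7 and 100.1 in MI rats and at 103.7, 123 and 92.3 in DAPA rats. It fell in MI vs. Sham by 0.82 on the log2 scale (SE 0.16, limma adjusted p = 0.00767), and stood at 0.28 with scaling to all reads, 0.64 below the median of all genes on that scale (difference -0.64).

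Among the other adenylyl cyclases, 3 of 5 tested rose and 1 fell in MI vs. Sham, where 19.5% of all genes rose and 19.5% fell. Adcy7 was at 1.90, 2.13 and 2.24 FPKM in Sham rats, at 18.6, 14.0 and 10.96 in MI rats and at 13.4, 9.76 and 16.5 in DAPA rats, a rise of 2.30 ± 0.21 in MI vs. Sham (limma adjusted p = 0.00102). Adcy7 is known from blood and immune cells, and the macrophage markers rose in 10 of 10 tested in the same comparison. Adcy4, known from endothelium, fell by 1.63 (SE 0.15, adjusted p = 0.00102), from 31.4, 34.0 and 36.0 FPKM in group Sham to 10.4, 8.84 and 11.6 in group MI, and 7 of 9 endothelial markers fell as well. In group DAPA Adcy4 was at 13.0, 11.8 and 13.0 FPKM. The part of macrophages and endothelial cells in the values of these cyclases was not tested.

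Of 12 other phosphodiesterases tested, 3 rose and 3 fell in MI vs. Sham, where 19.5% of all genes rose and 19.5% fell. Pde4c, a further cyclic AMP phosphodiesterase, was at 15.1, 34.2 and 31.0 FPKM in Sham rats, at 1.46, 0.655 and 1.62 in MI rats and at 1.40, 5.68 and 2.38 in DAPA rats, in the row with the higher mean of 2 with that name. It fell in MI vs. Sham by 3.58 on the log2 scale (SE 0.34, limma adjusted p = 0.00103). Pde9a, which breaks down cyclic GMP, was at 17.4, 12.0 and 20.1 FPKM in Sham rats, at 1.83, 2.53 and 2.12 in MI rats and at 5.65, 5.09 and 4.86 in DAPA rats. It fell by 2.44 (SE 0.22, adjusted p = 0.000975), and in DAPA vs. MI it stood at 0.98 ± 0.15 without overlap, with an unadjusted p of 0.000404 and an adjusted p of 0.558.

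Downstream of cyclic AMP, 4 of 19 tested genes of protein kinase A, its anchoring proteins and other cyclic AMP sensors rose and 2 fell in MI vs. Sham. Over all genes, 19.5% rose and 19.5% fell there. Prkacb, a catalytic subunit of protein kinase A, was at 5.96, 2.86 and 4.86 FPKM in Sham rats, at 13.1, 23.4 and 15.9 in MI rats and at 17.7, 8.27 and 21.5 in DAPA rats, and rose in MI vs. Sham by 1.73 ± 0.29 (limma adjusted p = 0.0046). Rapgef3, which encodes the cyclic AMP sensor Epac, fell by 2.02 (SE 0.25, adjusted p = 0.00185), from 54.9, 69.6 and 65.3 FPKM in group Sham to 18.5, 9.81 and 17.8 in group MI. In group DAPA Rapgef3 was at 21.0, 19.1 and 16.4 FPKM.

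On the cyclic GMP side, 3 of 6 tested genes fell and none rose in MI vs. Sham, where 19.5% of all genes fell. Of the endothelial markers 7 of 9 fell as well, with a median of -1.42, and their part in these values was not tested. Nos3, the endothelial nitric oxide synthase, was at 56.5, 53.4 and 70.6 FPKM in Sham rats, at 15.1, 9.07 and 14.7 in MI rats and at 16.7, 22.1 and 19.3 in DAPA rats, and it fell by 2.15 on the log2 scale in MI vs. Sham (SE 0.22, limma adjusted p = 0.00125). Npr1, the receptor for atrial and B-type natriuretic peptides, fell by 1.53 (SE 0.14, adjusted p = 0.00103).

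**Figure D5:**
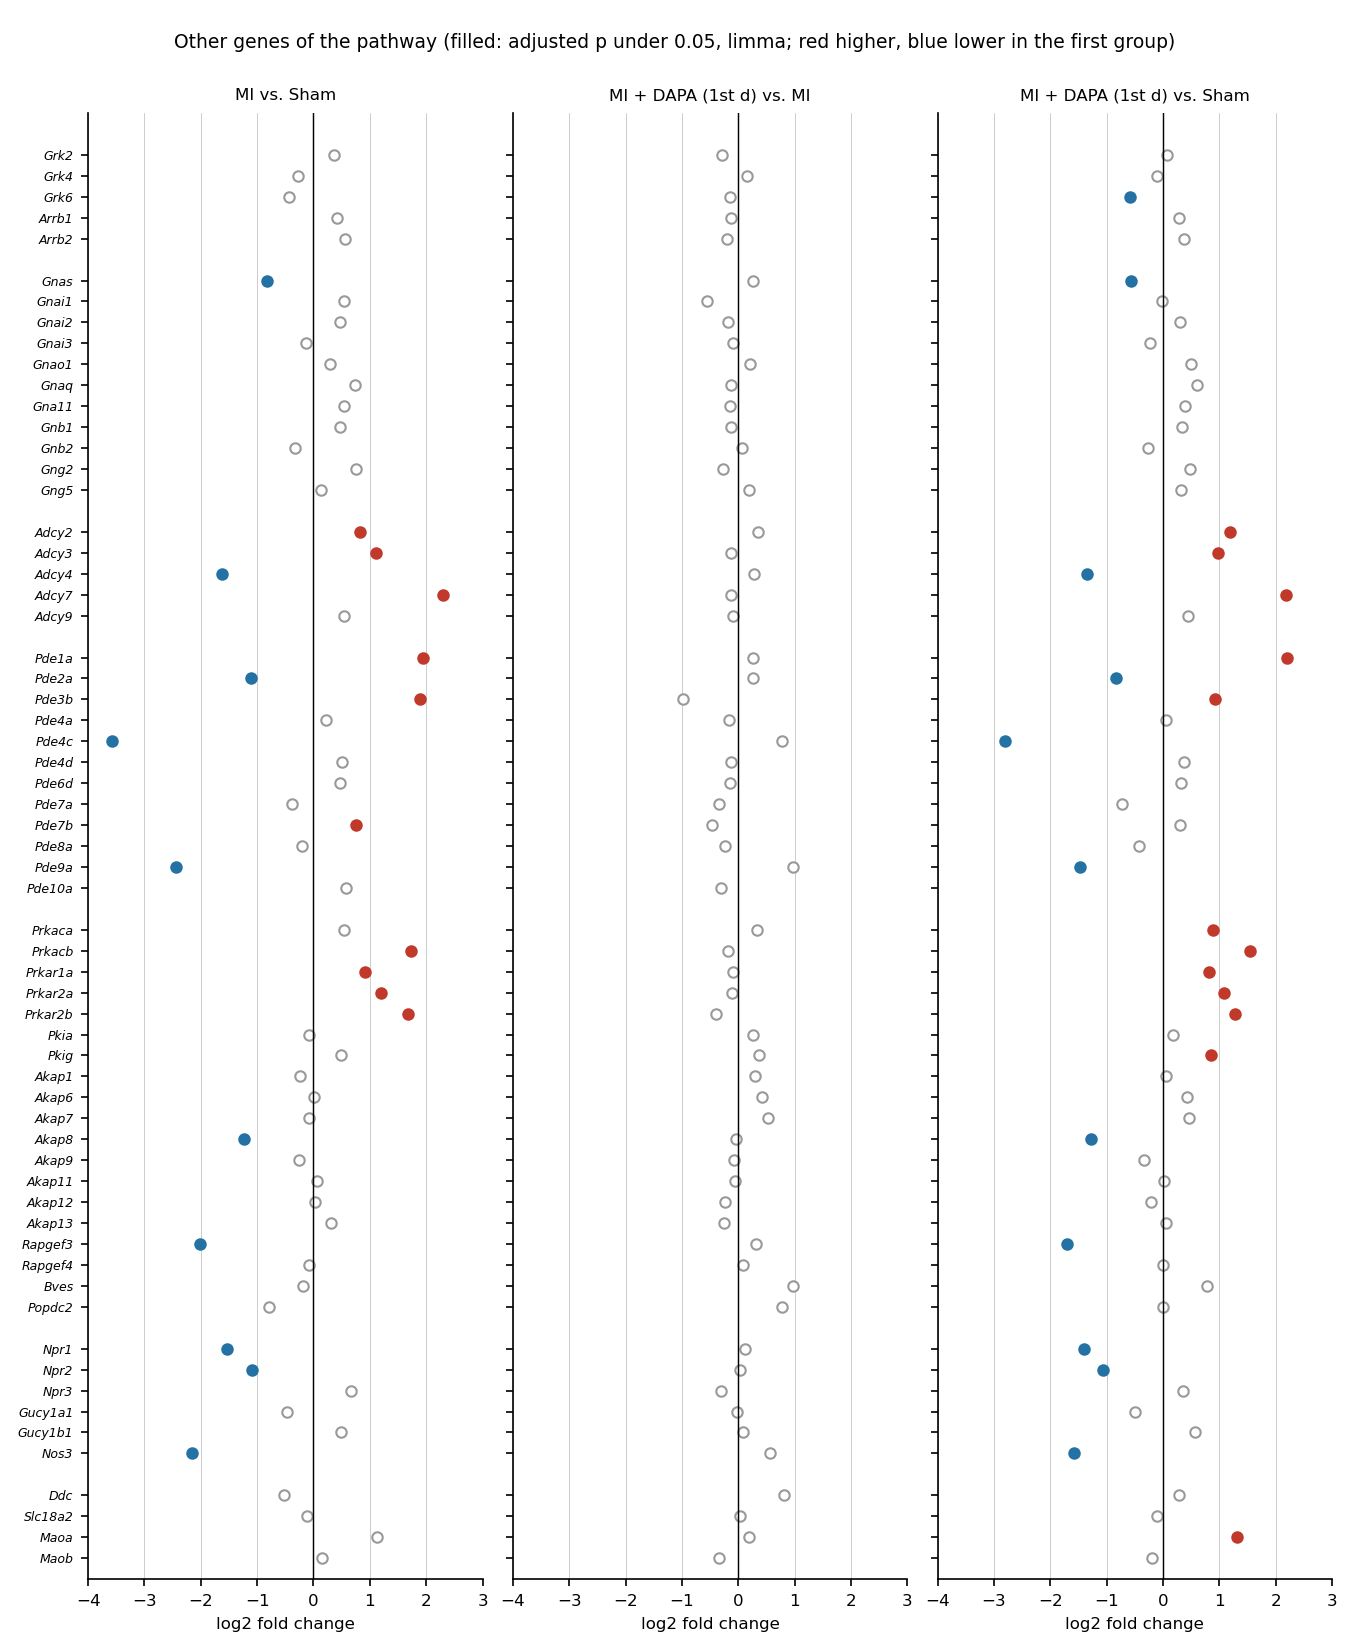
Log2 fold change on log2(FPKM + 1) of the other tested genes of the route in the 3 comparisons, in blocks for receptor kinases and arrestins, G protein subunits, cyclases, phosphodiesterases, protein kinase A and cyclic AMP sensors, cyclic GMP genes and catecholamine metabolism. Filled points passed the adjusted test (red higher, blue lower); 20 are filled in MI vs. Sham, 0 in DAPA vs. MI and 23 in DAPA vs. Sham.

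The genes whose level over the 9 rats was most like that of a member were found by the root mean square difference of centred log2(FPKM + 1), among 13012 genes (13013 for Adra1a). For Adra1b these were Idh2 and Nnt, both enzymes of the mitochondrial matrix or inner membrane that supply NADPH, at a difference of 0.23 each. Mrm1 and Dgcr8 were nearest to Adcy6 (0.08 each), and Golim4 and Fmnl2 to Pde3a (0.12 and 0.14). For Adcy5 they were Spryd7 and AABR07043421.1 (0.11 each), for Pde4b Ptpre and Klf16 (0.08 and 0.12), and for Pde5a Ccdc117 and Slc36a4 (0.08 and 0.09). Grk5 had Clba1 and Arhgap23 (0.12 each), Adrb1 had Slc41a3 and AC105662.2 (0.21 and 0.22), and Adra1a had Coa5 and Sdhaf2 (0.13 and 0.15). The fit is loosest for Adrb1 and Adra1b, whose own root mean square distance from their means was 0.50 and 0.70.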

How the data were processed

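Libraries were made from poly-A selected RNA with a NEBNext Ultra kit. FPKM values for 35843 genes in 9 rats were deposited by the authors; HISAT2 2.0.5, StringTie 1.3.3b, featureCounts 1.5.0-p3 and DESeq2 are named in the submitters' processing notes. The genome build and the strand setting are not given in the sources used here, so antisense overlaps cannot be told apart and promoter coordinates are those of the RefSeq table. The members and gene lists were chosen with earlier results of these data known; some genes of the lists are not reported here.

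All 9 columns were assigned to rats by their names. Low FPKM values are whole multiples of the value of 1 read; whole reads (within 0.02) came out for 100% of 18896 genes, those above 0 in 4 or more libraries, with 13601888 to 17212030 reads per rat. They served for depth and rescaling; counting limits cover counting error only. A count-based fit of these recovered reads was not made.

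limma 3.58.1 (R 4.3.3) was fitted to log2(FPKM + 1) with the 2 groups of a comparison, empirical Bayes with a mean trend, on genes that reached an FPKM of 1 in 3 or more rats of the fit, and p-values were adjusted by Benjamini-Hochberg over all of them. Ratios and marker-relative values went through exact permutation tests (two-sided). Each rat is a separate animal. On data simulated for MI vs. Sham (13554 genes tested), 17.7% of 96 genes changed 2-fold and 90.7% of 97 changed 4-fold were called. The simulation assumed a spread between rats and changed few genes, whereas 39% of genes were called in the data. These shares therefore do not carry over, and how often changes near 2-fold were missed in the data is not known. Named beside the members are their family partners, the 2 called genes with the largest change in MI vs. Sham of each list, and the 2 genes nearest to each member; Pde3b and Pde9a in DAPA vs. MI and Grk6 were named after their values were seen. Python 3.11.15 with numpy 2.4.6, pandas 2.3.3, scipy 1.17.1 and matplotlib 3.10.9 was used.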

Additional observations from a re-analysis of the deposited data

How the results depend on the processing

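Of the member changes, the rise of Adra1b in DAPA vs. Sham held under all 12 alternatives. The number of members called in MI vs. Sham, 2 as reported, was 1 with a pseudocount of 0.1, 0 without a filter on low values, 1 with the replicate block, 5 with scaling to all recovered reads, 1 with scaling outside the mitochondrial genome, 0 by the study's criterion, and 0 to 3 with 1 rat left out. In DAPA vs. MI it was 1 by the study's criterion. In DAPA vs. Sham, 2 as reported, it was 1 without a filter, 1 with all 9 rats in 1 fit, 5 with scaling to all reads, 1 by the study's criterion and 1 to 2 with 1 rat left out. Replicate numbers did not pair the rats (mean correlation of same-numbered rats 0.02, -0.18 and 0.10 in the 3 comparisons, every rat nearest to its own number in none of them), and the replicate block took Adcy6 in MI vs. Sham to an adjusted p of 0.0706 and Adcy5 in DAPA vs. Sham to 0.0599, and called 3 members in DAPA vs. Sham. Other genes of the route called numbered 49 in MI vs. Sham and 41 in DAPA vs. Sham with scaling to all reads, against 20 and 23, and in DAPA vs. Sham 15 by the study's criterion and 13 (without DAPA rat 1) to 20 with 1 rat left out. All genes called numbered 5261 in MI vs. Sham, 9559 with scaling to all reads, 3024 by the study's criterion and 3242 without MI rat 1; in DAPA vs. Sham they numbered 3822, 7554, 2364 and, without DAPA rat 1, 1802, without DAPA rat 3, 2509, and without Sham rat 3, 2223; in DAPA vs. MI they numbered 0, 273 by the study's criterion and 2 without MI rat 1. The causes of these shifts were not tested.

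Scaling to all reads turned Adcy6 to 0.21 in MI vs. Sham, -0.017 in DAPA vs. MI and 0.19 in DAPA vs. Sham, and Pde5a to 0.35 in DAPA vs. Sham. Leaving out 1 rat turned some differences that had not been called, over these ranges. Log2 fold changes ran from -0.20 to 0.51 for Adra1b and from -0.0079 to 0.43 for Adcy5 in MI vs. Sham, and in DAPA vs. MI from -0.099 to 0.37 for Adrb1, from -0.12 to 0.14 for Grk5, from -0.30 to 0.12 for Pde3a and from -0.36 to 0.036 for Pde4b. Log2 ratios ran in DAPA vs. MI from -1.09 to 0.094 for Adrb1 to Adra1a and from -0.098 to 0.056 for Pde4b to Pde4d, in MI vs. Sham from -0.10 to 0.38 for Grk5 to Grk2 and from -1.11 to 0.15 for Pde4b to Pde4d, and in DAPA vs. Sham from -0.93 to 0.075 for Pde3a to Pde3b and from -1.13 to 0.13 for Pde4b to Pde4d. Relative to cardiomyocyte markers they ran in DAPA vs. Sham from -0.35 to 0.87 for Adrb1, from -0.66 to 0.13 for Grk5, from -0.39 to 0.028 for Adcy5, from -0.15 to 0.85 for Pde3a and from -0.70 to 0.20 for Pde4b, in DAPA vs. MI from -1.02 to 0.032 for Adra1a and from -0.13 to 0.43 for Adra1b, and in MI vs. Sham from -0.88 to 0.11 for Adcy6 and from -0.084 to 1.43 for Pde5a. Where 2 rats remain in a group, their spread is pooled with the other group. Depth limits Adra1a and Adrb1 most, at 0 to 39 and 7 to 70 reads per rat.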
